A study of Mus musculus with 11 samples.

Results

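The genes described are the T cell receptor variable segments, taken as every gene whose Ensembl 96 symbol begins with Trav, Trbv, Trdv or Tcrg-V and which held at least 1 count over 11 RNA-seq libraries of sorted mouse epidermal cells together. Of 175 such segments in the annotation, 77 held a count, among 41302 genes with a count in all. They were 42 of 128 Trav, 25 of 35 Trbv, 4 of 6 Trdv and all 6 Tcrg-V segments, and 6 of the 77 are annotated as pseudogenes, which held 11 counts in all. The 77 segments held 6157 counts, of which 2638 fell on Trdv, 1696 on Tcrg-V, 1516 on Trbv and 307 on Trav.

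The cells came from the dorsal skin of male *CD4Cre/tdT* mice (CD4Cre R26-tdT on C57Bl6/N), in which Cre under the control of the Cd4 promoter switches on the red fluorescent protein tdTomato (tdT) for good, so that tdT+ cells are cells, or the progeny of cells, that expressed the Cre. All groups carry both alleles, and tdT+ and tdTneg cells were sorted from the same genotype. The 4 groups were tdT+CD49f+CD34+ (3 libraries), tdTnegCD49f+CD34+ (3 libraries), tdT+CD49f+CD34+SCA-1+ (3 libraries) and tdTnegCD49f+CD34+SCA-1+ (2 libraries), where CD49f and CD34 mark hair follicle stem cells and SCA-1 (Ly6a) marks cells of the upper follicle and the epidermis. The groups without SCA-1 in their name were sorted as SCA-1neg. Replicate 1 came from mice of 29 weeks and replicates 2 and 3 from mice of 32 weeks, with 2 mice pooled in each. The design asks which transcripts differ between tdT+ and tdTneg cells of each sort and between the sorts.

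The libraries held 17409131 to 46542177 counts on genes, so that 3 counts, the limit that a count of 0 allows, stood for 0.0645 to 0.172 CPM (counts per 1000000 counts on genes). Markers of keratinocytes, the cells the sort was aimed at, summed to between 17560 and 38980 CPM over 7 genes in every library, while 10 T cell genes summed to between 27.4 and 1087 CPM and 3 natural killer cell genes to at most 0.964 CPM. RNA of Cd34, which encodes a surface protein used in the sort of all 4 groups, stood at 24.9, 36.1 and 21.7 CPM in the tdT+ SCA-1+ libraries, against 336 and 386 CPM in the tdTneg SCA-1+ and 417 to 1140 CPM in the CD49f+CD34+ libraries. It was thus low for a CD34+ label in tdT+ SCA-1+ cells, with a log2 fold change against tdTneg SCA-1+ cells of -3.68 (standard error 0.33, edgeR adjusted p = 0.000776), and its part in the V segment levels was not tested. A feature without an Ensembl gene, which the files do not describe, stood at 133 to 307 CPM in 5 of the 6 tdT+ libraries and at 2.54 to 4.89 CPM in the 5 tdTneg ones. The library labelled tdT+ CD49f+CD34+ replicate 2 had 2.05 CPM of it, so that in this feature it was unlike the other libraries labelled tdT+. Whether its sort or label holds was not tested, and the values of Tcrg-V5 and Trdv4 and the calls that rest on that library are given with and without it. The library labelled tdTneg CD49f+CD34+ replicate 2 stood apart in its V segments, as described further on. Values without it are given for Tcrg-V5 and Trdv4 and for counts of receptor and leukocyte genes called, but not for every other gene. Intervals on counts are exact 95% intervals and cover counting error only.

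T cells carry either an alpha-beta or a gamma-delta receptor. The outer domain of each chain is encoded by a variable (V) segment that was joined in that cell to a joining segment, with a diversity segment between them in the beta and delta chains, and the joined exon is spliced to the constant region. A V segment thus appears in mature RNA mainly where a T cell chose it. The epidermis of the mouse holds a resident population of gamma-delta T cells, the dendritic epidermal T cells, whose receptors are nearly uniform and are built from Tcrg-V5 and Trdv4, whereas alpha-beta T cells draw on many Trav and Trbv segments.

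The last 240 coding bases of the segments that lead the counts are given here from the GENCODE M21 transcripts (GRCm38), with the codon of the conserved cysteine at which the third complementarity-determining region begins in capitals. All lie on the forward strand, within the second of the 2 exons of each segment. Tcrg-V5 (chr13:19192486-19192725) and Trdv4 (chr14:54075276-54075515) are shown because together they held most V segment counts in all libraries but 2.
Tcrg-V5: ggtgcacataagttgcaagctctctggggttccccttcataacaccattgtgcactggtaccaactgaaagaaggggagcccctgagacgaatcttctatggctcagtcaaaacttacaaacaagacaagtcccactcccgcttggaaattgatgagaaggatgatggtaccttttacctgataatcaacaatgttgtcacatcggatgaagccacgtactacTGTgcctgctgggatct
Trdv4: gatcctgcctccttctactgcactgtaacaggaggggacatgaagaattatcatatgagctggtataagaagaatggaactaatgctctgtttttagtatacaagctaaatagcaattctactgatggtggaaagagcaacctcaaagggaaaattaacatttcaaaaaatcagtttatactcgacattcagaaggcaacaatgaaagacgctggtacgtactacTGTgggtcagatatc

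Tcrg-V7 (chr13:19178253-19178492) is shown because counts on it were found in tdT+ libraries and in no tdTneg library. Trbv16 (chr6:41151991-41152230), Trbv15 (chr6:41141419-41141658) and Trbv17 (chr6:41163317-41163556) are shown because each led the beta chain counts of a different tdT+CD49f+CD34+SCA-1+ library.
Tcrg-V7: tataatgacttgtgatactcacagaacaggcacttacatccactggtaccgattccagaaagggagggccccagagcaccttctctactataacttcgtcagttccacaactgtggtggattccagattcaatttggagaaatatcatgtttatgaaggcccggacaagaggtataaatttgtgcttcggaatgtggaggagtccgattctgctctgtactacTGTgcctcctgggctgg
Trbv16: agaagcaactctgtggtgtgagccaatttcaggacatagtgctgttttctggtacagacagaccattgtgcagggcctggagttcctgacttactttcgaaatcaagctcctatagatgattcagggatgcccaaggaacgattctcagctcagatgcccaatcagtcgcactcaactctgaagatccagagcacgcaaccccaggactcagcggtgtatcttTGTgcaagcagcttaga
Trbv15: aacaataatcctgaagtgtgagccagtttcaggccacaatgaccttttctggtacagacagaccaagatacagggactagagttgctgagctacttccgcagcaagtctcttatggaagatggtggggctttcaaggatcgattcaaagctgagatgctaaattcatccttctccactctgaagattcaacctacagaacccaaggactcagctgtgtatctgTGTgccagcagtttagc
Trbv17: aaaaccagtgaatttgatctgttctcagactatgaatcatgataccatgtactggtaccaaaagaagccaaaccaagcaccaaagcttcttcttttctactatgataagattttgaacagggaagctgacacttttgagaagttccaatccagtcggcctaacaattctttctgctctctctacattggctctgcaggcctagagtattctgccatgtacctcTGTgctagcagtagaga

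V segment RNA of all 4 loci was highest in tdT+CD49f+CD34+SCA-1+ cells. There the delta segments (Trdv, chromosome 14, 53881612 to 54149294) summed to 26.8 ± 4.81 CPM (SD, n = 3), the gamma segments (Tcrg-V, chromosome 13, 19178024 to 19340454) to 19.2 ± 6.06, the beta segments (Trbv, chromosome 6, 40891229 to 41558452) to 23.0 ± 20.9 and the alpha segments (Trav, chromosome 14, 52427928 to 53977678) to 3.98 ± 4.02 CPM. In tdTnegCD49f+CD34+SCA-1+ cells the delta segments summed to 8.75 ± 2.995 CPM (SD, n = 2) and the gamma segments to 4.85 ± 0.103 CPM, while the beta segments stood at 0.918 ± 0.582 and the alpha segments at 0.298 ± 0.00240 CPM. The 3 tdT+ and the 2 tdTneg libraries of the SCA-1+ sort did not overlap at any locus, and the ratio of the means was 3.06 for Trdv, 3.95 for Tcrg-V, 25 for Trbv and 13.4 for Trav. Without tdT+ SCA-1+ replicate 2 the ratio was 12.1 for Trbv and 5.56 for Trav, and without tdTneg SCA-1+ replicate 1 it was 45.3 for Trbv. No test was made of these sums or of the difference between their ratios. Since these are bulk RNA samples, more T cells and more receptor RNA per T cell cannot be told apart. The summed T cell markers moved with them, from 141 to 159 CPM in the tdTneg and 413 to 1087 CPM in the tdT+ libraries of this sort, and all 10 marker genes were detected in every library.

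In the CD49f+CD34+ sort the delta and gamma sums were lower than in SCA-1+ cells of the same tdT class, with no overlap, and so were the beta and alpha sums of tdT+ cells, while those of tdTneg cells overlapped between the sorts. The delta segments were at 0.767, 5.54 and 3.68 CPM in the 3 tdT+ libraries and at 0.688, 0.0508 and 0.786 CPM in the 3 tdTneg libraries, so that the first tdT+ library overlapped with the tdTneg group per total count, but not after TMM scaling (0.860 against at most 0.780 CPM). The gamma segments were at 0.929, 3.05 and 2.20 CPM against 0.258, 0.0254 and 0.295 CPM and did not overlap. Beta and alpha segments overlapped between tdT+ and tdTneg cells of this sort, at 0.277 to 1.65 against 0.172 to 0.635 CPM for Trbv and at 0.161 to 0.443 against 0 to 0.737 CPM for Trav. The third tdTneg library held 0 Trav counts, which allows up to 0.0737 CPM (3 counts). Summed T cell markers were at 46.7 to 82.8 CPM in the tdT+ and 27.4 to 33.1 CPM in the tdTneg libraries. Most of the tdTneg sum was Thy1, at 24.7, 17.3 and 21.9 CPM in the 3 libraries. Thy1, Cd5 and Lck each overlapped between tdT+ and tdTneg cells of this sort, so not every marker in the sum separated them. The 4 CD3 genes among the markers summed to 11.5 to 27.4 CPM in the tdT+ and 0.915 to 2.92 CPM in the tdTneg libraries. The sum of 5 general leukocyte markers did not overlap between tdT+ and tdTneg cells in either sort. It was at 55.7 to 122 against 7.001 to 34.7 CPM here and at 287 to 529 against 102 to 223 CPM in the SCA-1+ sort. Of the 5 genes 0 were called in each comparison, and 1 in each on leaving out tdTneg CD49f+CD34+ replicate 2. Laptm5 and Cd53 overlapped in the SCA-1+ sort after TMM scaling. Their lowest tdT+ values were 66.5 and 19.3 CPM, against highest tdTneg values of 104 and 24.3 CPM. The part of these cells in the V segment levels was not tested.

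**Figure D1:**
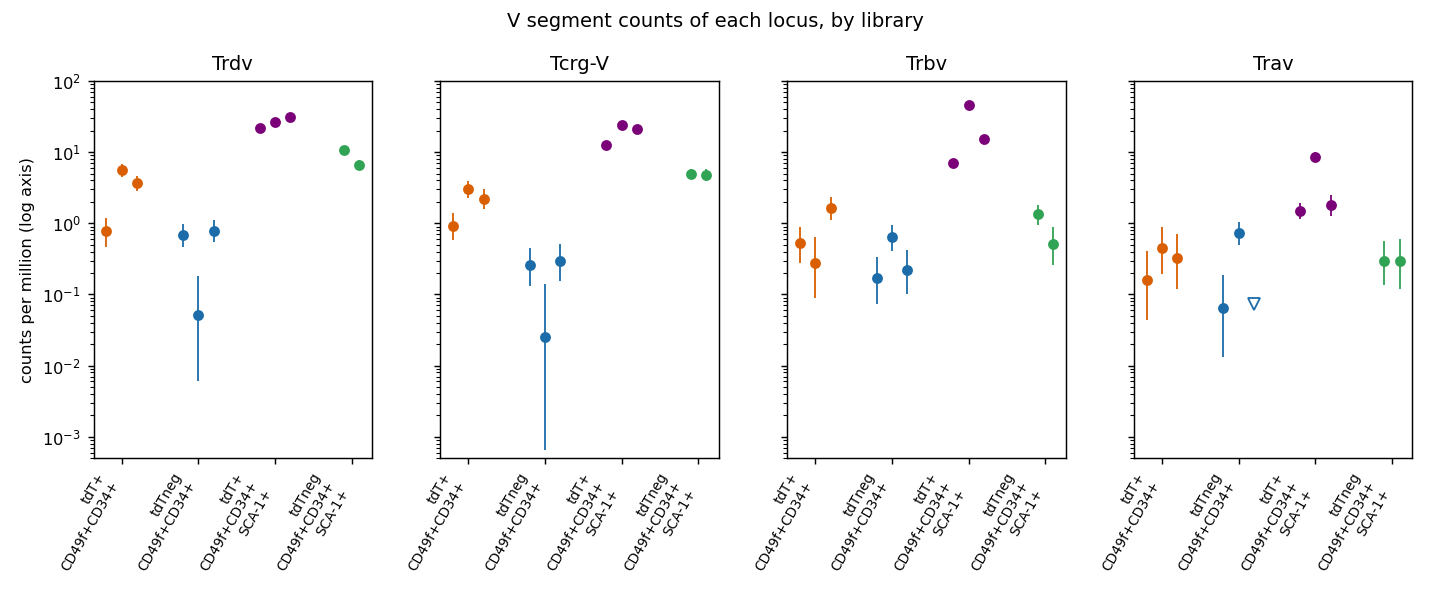
Summed levels in CPM (log axis) of the Trdv, Tcrg-V, Trbv and Trav segments in each library, 1 point per library, coloured by group, with exact 95% Poisson intervals as bars, and an open triangle at 3 counts for the library with 0 Trav counts. The 3 tdT+CD49f+CD34+SCA-1+ libraries are the highest at every locus, from 7.11 to 46.6 CPM for Trbv and from 22.0 to 31.6 CPM for Trdv.

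Trdv4 and Tcrg-V5 dominated the counts. They were the only segments found in all 11 libraries, and together they held 3938 of the 6157 V segment counts (64.0%, 62.8 to 65.2%). Per kilobase of exon Trdv4 held 5777 counts over all libraries and Tcrg-V5 4026, and the next, Trbv15, 754. Trdv4 made up 97.2% of all delta counts and Tcrg-V5 81.0% of all gamma counts.

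Trdv4 (ENSMUSG00000076867) held 791, 461 and 617 counts in the tdT+CD49f+CD34+SCA-1+ libraries (21.6, 26.5 and 30.9 CPM) and 305 and 143 in the tdTnegCD49f+CD34+SCA-1+ libraries (10.1 and 6.04 CPM). It held 19, 96 and 67 counts in the tdT+CD49f+CD34+ libraries (0.767, 5.32 and 3.68 CPM) and 32, 2 and 32 in the tdTnegCD49f+CD34+ libraries (0.688, 0.0508 and 0.786 CPM). The order of the groups was thus tdT+ SCA-1+, tdTneg SCA-1+, tdT+ and tdTneg, and of neighbours in it tdT+ and tdTneg CD49f+CD34+ cells overlapped, at 0.767 and 0.786 CPM, but not after TMM scaling. Tcrg-V5 (ENSMUSG00000076747) followed the same order, with 384, 327 and 318 counts (10.5, 18.8 and 15.9 CPM) in tdT+ SCA-1+ cells and 127 and 98 counts (4.22 and 4.14 CPM) in tdTneg SCA-1+ cells. In the CD49f+CD34+ sort it held 20, 46 and 31 counts (0.808, 2.55 and 1.70 CPM) in tdT+ and 10, 1 and 11 counts (0.215, 0.0254 and 0.270 CPM) in tdTneg cells, with no overlap between neighbouring groups.

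Over all libraries there were 1.87 Trdv4 counts per Tcrg-V5 count, or 1.44 per kilobase of exon. By library the ratio of counts lay between 0.950, in tdT+CD49f+CD34+ replicate 1, and 3.20, in tdTnegCD49f+CD34+ replicate 1, and it was 1.41 to 2.06 in tdT+ SCA-1+ and 1.46 to 2.40 in tdTneg SCA-1+ libraries, which overlap. At 1 and 2 counts, the ratio of tdTnegCD49f+CD34+ replicate 2 has little meaning.

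**Figure D2:**
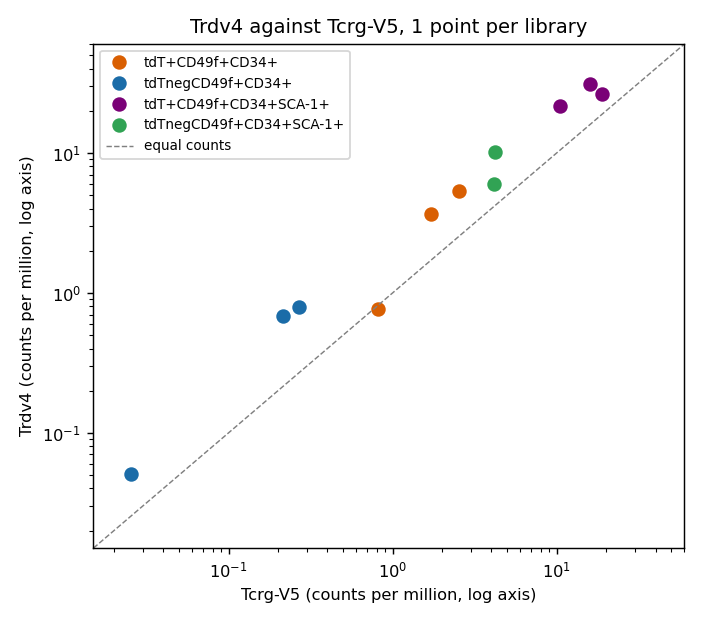
Trdv4 against Tcrg-V5, both in CPM on log axes, 1 point per library, coloured by group, with a dashed line where the counts are equal. The points run from 0.0254 and 0.0508 CPM in tdTnegCD49f+CD34+ replicate 2 up to the tdT+CD49f+CD34+SCA-1+ libraries, and 10 of the 11 lie above the line.

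The groups were compared for each segment within a fit over all genes (edgeR quasi-likelihood test, all 11 libraries, called at a Benjamini-Hochberg adjusted p under 0.05 over 20307 genes and an absolute log2 fold change over 1). Of the 77 segments, 18 passed the filter on low counts (2 Trdv, 5 Tcrg-V, 10 Trbv and 1 Trav) and 59 were not tested. Segments that are near 0 in 3 groups passed through the group where they are high. The counts below of calls, of unadjusted p under 0.05 and of segments without overlap thus only describe the segments. They lend support to none of the comparisons. The 4 comparisons share libraries with each other. Replicates are separate pools of mice.

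Between the sorts, the leading gamma and delta segments were higher in SCA-1+ cells. Within tdT+ cells 4 of the 18 segments tested were called and all 4 were higher in SCA-1+ cells, against 2.91% of all genes tested that were called higher (8.45% in either direction), and the libraries of all 4 did not overlap, as for 30.4% of all genes. These were Tcrg-V5 (log2 fold change 3.15, standard error 0.65, edgeR adjusted p = 0.0125), Trdv4 (3.03, standard error 0.81, edgeR adjusted p = 0.0376), Tcrg-V4 (edgeR adjusted p = 0.0456) and Trbv1 (edgeR adjusted p = 0.0257). Tcrg-V4 and Trbv1 held 0 counts in all 3 tdT+CD49f+CD34+ libraries, so that against a floor of 3 counts over that group they were at least 17.9-fold and 51.1-fold higher. Of the 186 Trbv1 counts of tdT+ SCA-1+ cells 146 lay in replicate 2, and without that library the bound was 14.4-fold. With the replicate number, which marks a shared pool of mice, as a block, only Tcrg-V5 remained called (edgeR adjusted p = 0.0201), while Trbv1 had an adjusted p of 0.0522, Trdv4 of 0.0543 and Tcrg-V4 of 0.101. When each library was left out in turn, Tcrg-V5 was called in 11 of 11, Trdv4 in 2 of 11, Trbv1 in 7 of the 9 that tested it and Tcrg-V4 in 1 of 9. When that labelled tdT+ CD49f+CD34+ replicate 2 was the library left out, the log2 fold change came to 3.52 for Tcrg-V5 (edgeR adjusted p = 0.0230) and 3.54 for Trdv4 (edgeR adjusted p = 0.0531), and Tcrg-V4 (edgeR adjusted p = 0.0787) and Trbv1 (edgeR adjusted p = 0.0539) were not called either.

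Within tdTneg cells 2 of the 18 segments were called, Tcrg-V5 and Trdv4, again higher in SCA-1+ cells, against 3.29% of all genes called higher (1.45% lower, 4.74% in either direction). Neither overlapped between the sorts, as for 46.3% of all genes. The log2 fold change was 4.56 for Tcrg-V5 (standard error 0.73, edgeR adjusted p = 0.0104) and 3.95 for Trdv4 (standard error 0.89, edgeR adjusted p = 0.0323). On leaving out the library labelled tdTneg CD49f+CD34+ replicate 2, which held 1 and 2 counts of them, they were 4.08 (edgeR adjusted p = 0.0123) and 3.44 (edgeR adjusted p = 0.0291). Tcrg-V5 was called in 10 of the 11 fits that left out 1 library and Trdv4 in 5 of 11. The exception for Tcrg-V5 was the fit without tdTnegCD49f+CD34+SCA-1+ replicate 1, in which that group had 1 library. Trdv1 held 22 and 12 counts in the tdTneg SCA-1+ libraries and 0 in all CD49f+CD34+ libraries, at least 26.7-fold more in the former, and missed the threshold with an edgeR adjusted p of 0.0503, though it was called in 6 of 17 alternative fits (edgeR adjusted p from 0.0243 to 0.31). With the groups compared alone Trdv1 was called (edgeR adjusted p = 0.0472) and Trdv4 was not (edgeR adjusted p = 0.0597). Markers of other leukocytes moved with these segments. The 6 Langerhans and myeloid cell markers summed to 516 to 920 CPM in the tdTneg SCA-1+ and 11.6 to 97.8 CPM in the tdTneg CD49f+CD34+ libraries, with 2 of 6 called higher, and 5 general leukocyte markers summed to 102 to 223 against 7.001 to 34.7 CPM, with 3 of 5 called higher. Within tdT+ cells the leukocyte markers were at 287 to 529 against 55.7 to 122 CPM (1 of 5 called higher), and the Langerhans and myeloid markers overlapped, at 280 to 333 against 46.4 to 486 CPM (0 of 6 called, and 2 when the library labelled tdT+ CD49f+CD34+ replicate 2 was left out). On leaving out tdTneg CD49f+CD34+ replicate 2, all 5 leukocyte markers were called higher in both comparisons. The part of these cells in the V segment levels was not tested.

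Between tdT+ and tdTneg cells of the SCA-1+ sort 0 of the 18 segments were called, where 0.251% of all genes tested were called higher in tdT+ cells (2.31% in either direction), and 7 segments had an unadjusted p under 0.05, all higher in tdT+ cells, as had 14.6% of all genes in either direction and 5.17% higher in tdT+ cells. For Tcrg-V5 the log2 fold change came to 1.89 (standard error 0.71, edgeR adjusted p = 0.244) and for Trdv4 to 1.75 (standard error 0.89, edgeR adjusted p = 0.42), and for both the libraries of the groups did not overlap, as for 33% of all genes tested. DESeq2 on the same genes, which gave an adjusted p for 6 of the 18 segments, called 3, Tcrg-V5, Tcrg-V7 and Trbv1 (5.54% of all genes called), and edgeR on the 5 libraries of this sort alone called Tcrg-V5 (adjusted p = 0.0297) and Trdv4 (adjusted p = 0.0244), where it called 5.09% of all genes. Over all 17 alternative fits the adjusted p ran from 0.0188 to 0.852 for Tcrg-V5 and from 0.0244 to 0.971 for Trdv4, so that this comparison depends on the fit.

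Between tdT+ and tdTneg cells of the CD49f+CD34+ sort 0 of the 18 segments were called, where 0.00985% of all genes tested were called, and 4 segments had an unadjusted p under 0.05, all higher in tdT+ cells, as had 8.42% of all genes in either direction and 4.56% higher in tdT+ cells. For Tcrg-V5 the log2 fold change came to 3.29 (standard error 0.68, edgeR adjusted p = 0.187), and after TMM scaling neither it nor Trdv4 overlapped between the groups, as for 16% of all genes. For Trdv4 it was 2.68 (standard error 0.82, edgeR adjusted p = 0.393). DESeq2, with an adjusted p for 8 of the 18 segments, called both, and 1.63% of all genes. On leaving out the library labelled tdT+ CD49f+CD34+ replicate 2, they came to 2.92 (edgeR adjusted p = 0.386) and 2.17 (edgeR adjusted p = 0.633), and on leaving out its tdTneg counterpart of the same number to 2.82 (edgeR adjusted p = 0.0986) and 2.16 (edgeR adjusted p = 0.204). The difference of the tdT effect between the sorts was called by edgeR for 0 of the 18 segments and by DESeq2 for 0 of the 6 to which it gave an adjusted p, where edgeR called 0.389% of all genes (0.379% as lower) and DESeq2 3.83%. An unadjusted p under 0.05 was found for 2 of the 18 segments, Trbv1 and Trbv12-1, and for 12.4% of all genes, a share near that of the segments. For Tcrg-V5 that difference was -1.40 (standard error 0.90, edgeR adjusted p = 0.576) and for Trdv4 -0.92 (standard error 1.13, edgeR adjusted p = 0.80). When the library labelled tdT+ CD49f+CD34+ replicate 2 was left out these were -1.03 (edgeR adjusted p = 0.743) and -0.42 (edgeR adjusted p = 0.94), and without its tdTneg counterpart -0.93 (edgeR adjusted p = 0.566) and -0.41 (edgeR adjusted p = 0.871).

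The other gamma and delta segments were rare, and edgeR called none of those tested between tdT+ and tdTneg SCA-1+ cells. Tcrg-V7, a segment known from gamma-delta T cells of the gut epithelium, held 16, 56 and 32 counts in the tdT+ SCA-1+ libraries and 0 in both tdTneg SCA-1+ libraries, at least 25.2-fold more, or 15.2-fold without replicate 2. In the CD49f+CD34+ sort it held 2, 1 and 0 counts in tdT+ and 0 in tdTneg cells. The edgeR adjusted p within SCA-1+ cells was 0.105, and over 17 alternative fits it ran from 0.00920, with DESeq2, to 0.524. Tcrg-V4, used by gamma-delta T cells of dermis and lymph nodes, held 28, 4 and 33 counts in tdT+ and 6 and 4 counts in tdTneg SCA-1+ cells and 0 in both CD49f+CD34+ groups. Its exons overlap Gm31887 on the opposite strand, and whether reads were counted by strand is not given in the sources used here, so its counts are uncertain.

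Tcrg-V1, common among gamma-delta T cells of lymphoid organs, held 20, 24 and 9 counts in tdT+ and 2 and 3 in tdTneg SCA-1+ libraries. Tcrg-V3 held 0, 7 and 18 counts in tdT+ and 0 in tdTneg SCA-1+ libraries, so that tdT+ libraries overlapped with tdTneg ones. Both were also seen outside the SCA-1+ sort, with 3 counts of Tcrg-V1 and 1 count of Tcrg-V3 in tdT+ libraries.

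Within the SCA-1+ sort, Tcrg-V6 and Trdv1 stood higher in the tdTneg than in the tdT+ libraries. Tcrg-V6, which pairs with Trdv4 in a class of gamma-delta T cells that makes interleukin-17, held 7, 3 and 6 counts in the tdT+ and 13 and 8 in the tdTneg SCA-1+ libraries (0.222 ± 0.0694 CPM, SD, n = 3, and 0.385 ± 0.0666 CPM, SD, n = 2). Trdv1 held 11, 4 and 9 counts in the tdT+ and 22 and 12 in the tdTneg SCA-1+ libraries (0.327 ± 0.113 CPM, SD, n = 3, and 0.619 ± 0.159 CPM, SD, n = 2). Neither overlapped between the groups, as for 33% of all genes tested in either direction. They were the 2 of the 18 tested segments without overlap in this direction, against 13 that were higher in tdT+ cells. Segments near 0 in the other groups passed the filter through the tdT+ SCA-1+ libraries, so this split is no support for a direction. Neither Tcrg-V6 nor Trdv1 was called, with log2 fold changes of -0.74 (edgeR adjusted p = 0.891) for Tcrg-V6 and -0.86 (edgeR adjusted p = 0.840) for Trdv1. Of the gamma counts of the SCA-1+ groups, Tcrg-V6 made up 8.05% (5.05 to 12.0%) in tdTneg and 1.24% (0.710 to 2.00%) in tdT+ SCA-1+ cells. Of the delta counts, Trdv1 made up 7.02% (4.91 to 9.68%) and 1.26% (0.810 to 1.87%). In the CD49f+CD34+ sort Tcrg-V6 held 0, 5 and 9 counts in tdT+ and 2, 0 and 1 in tdTneg cells, or 11.9% (6.64 to 19.1%) and 12.0% (2.55 to 31.2%) of their gamma counts, and the third tdT+ library had its highest level of all, 0.495 CPM. Trdv1 held none there, while Trdv5 held 11 and Trdv2-2 held 4 counts in all libraries.

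**Figure D3:**
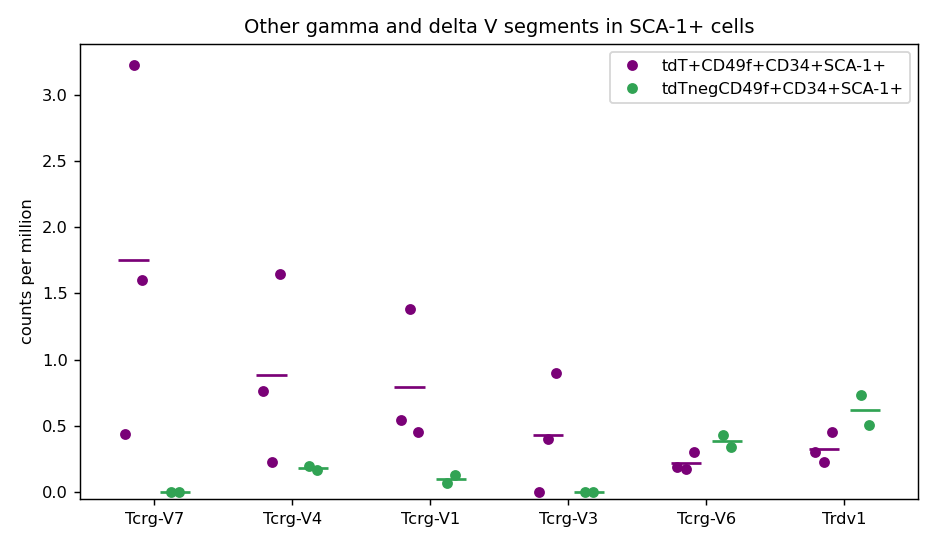
Levels in CPM of 5 further gamma segments and of Trdv1 in the SCA-1+ libraries, 1 point per library, with the group mean as a line, for tdT+ (3 libraries) and tdTneg (2 libraries) cells. Tcrg-V7 lies between 0.437 and 3.22 CPM in tdT+ libraries and at 0 in both tdTneg libraries, and Tcrg-V6 and Trdv1 are the segments whose tdTneg points lie above all tdT+ points.

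The beta chain counts of tdT+CD49f+CD34+SCA-1+ cells were spread over many segments, and each library had a different leader. The 3 libraries held 260, 811 and 303 Trbv counts on 17, 16 and 12 segments. Of 21 segments seen in this group 9 were in all 3 libraries, 6 in 2 and 6 in 1. Trbv16 led replicate 1 with 90 counts (34.6%, 28.9 to 40.7%) and held 35 and 0 counts in replicates 2 and 3. Trbv15 led replicate 2 with 268 counts (33.0%, 29.8 to 36.4%) and held 1 and 10 counts in replicates 1 and 3. Trbv17 led replicate 3 with 165 counts (54.5%, 48.7 to 60.2%) and held 3 and 0 counts in the others. A share of the group's pooled counts thus depended on single libraries, and for Trbv15 it was 20.3% with all 3 libraries and 1.95% without replicate 2.

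Further segments were weighted to replicate 2, among them Trbv13-1 with 2, 123 and 0 counts, Trbv1 with 13, 146 and 27 and Trbv12-2 with 6, 69 and 3. Others were more even, such as Trbv3 with 20, 27 and 14 counts, Trbv12-1 with 15, 38 and 16, Trbv13-2 with 30, 17 and 9, Trbv13-3 with 18, 6 and 13 and Trbv19 with 25, 5 and 11 counts. Trbv29 held 2, 23 and 18 counts and Trbv31 held 0, 8 and 8. A count of effective segments, the inverse of the summed squared shares, was 6.08 in replicate 1, 5.57 in replicate 2 and 3.13 in replicate 3.

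**Figure D4:**
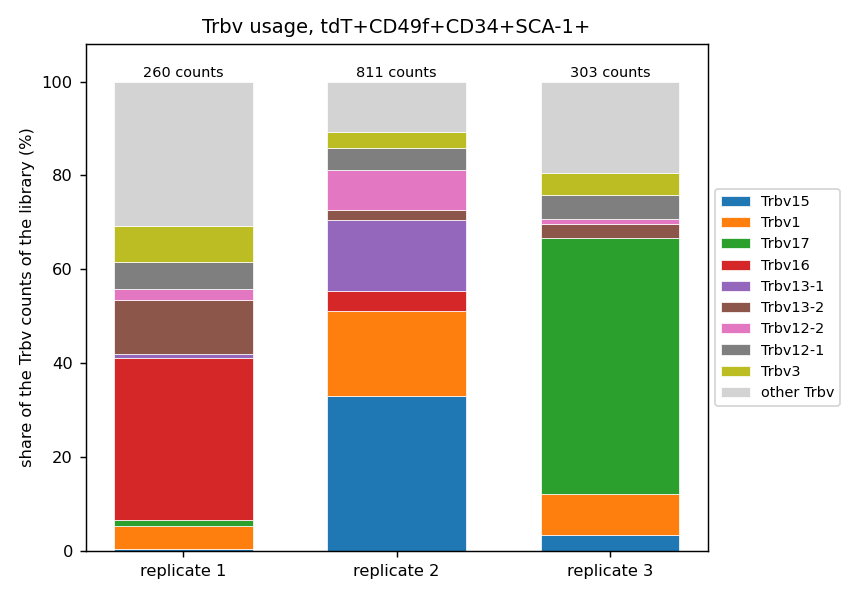
Share of the Trbv counts of each tdT+CD49f+CD34+SCA-1+ library (percent) held by 9 segments and by all others, 1 bar per library, with the number of Trbv counts above it. Trbv16 takes 34.6% of replicate 1, Trbv15 33.0% of replicate 2 and Trbv17 54.5% of replicate 3.

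Outside that group the beta counts were few. The tdTneg SCA-1+ libraries held 40 and 12 Trbv counts, with Trbv16 leading replicate 1 (14 counts) and Trbv13-2 replicate 2 (10 counts). Against these, Trbv15 was at least 67.6-fold, Trbv12-2 18.9-fold and Trbv12-1 16.7-fold higher in tdT+ SCA-1+ cells, from group sums of 279, 78 and 69 against 0 counts and a floor of 3. Replicate 2 held 268, 69 and 38 of these counts, and without it the bounds were 3.49-fold, 2.85-fold and 9.82-fold. The edgeR adjusted p of Trbv15 in that comparison was 0.339. The tdT+CD49f+CD34+ libraries held 13, 5 and 30 Trbv counts and the tdTneg ones 8, 25 and 9. In tdT+CD49f+CD34+ replicate 3, 14 of the 30 counts fell on Trbv13-2 and 12 on Trbv17, the latter being the leader of the tdT+ SCA-1+ library of the same number.

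Alpha segments held 307 counts on 42 segments. The leading one, with 68 counts, was Trav13-4-dv7, a segment that can join to the alpha or the delta chain. It held 0, 50 and 10 counts in the tdT+ SCA-1+ libraries and 8 and 0 in the tdTneg SCA-1+ libraries. Trav14d-3-dv8 held all of its 22 counts in tdT+ SCA-1+ replicate 2, and Trav15-1-dv6-1 held 10, 8 and 0 counts in the 3 tdT+ SCA-1+ libraries. Of 29 Trav segments seen in tdT+ SCA-1+ cells 1 was in all 3 libraries, 8 in 2 and 20 in 1. Segments with a dv name, which can serve the delta chain, held 131 of the 307 counts, 93 of them in tdT+ SCA-1+ replicate 2. Trav11 and Trav11d, the segments of invariant natural killer T cells, and Trav1, that of mucosal-associated invariant T cells, held 0 counts in all 11 libraries. These counts of 0 do not show that such RNA was absent. Over all undetected Trav segments a median of 0.3% of 50-base windows occur in no other gene's transcript. How reads with several matches were counted is not given in the sources used here.

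The alpha values are also those that the sequences make least certain. The mouse Trav locus holds duplicated arrays, and over the 128 annotated Trav segments a median of 36.8% of the 50-base windows of a segment occur in no other gene's transcript, against 100% for Trbv, 79.7% for Trdv and 99.0% for Tcrg-V. Undetected Trav segments had a median of 0.3% and detected ones of 61.5%. For Trav13-4-dv7 it was 22.9%, so its counts could belong in part to a near copy. The segments of the original array held 241 of the 307 counts on 29 of 55 segments, and the copies marked d and n held 38 and 28. Trdv4, Tcrg-V5, Tcrg-V6, Tcrg-V7, Trdv1, Trbv1, Trbv15, Trbv16 and Trbv17 were unique over their whole length.

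Gamma and delta segments together made up 82.2% (77.9 to 85.9%) of the V segment counts of tdT+CD49f+CD34+ cells, 55.2% (47.2 to 62.9%) of tdTnegCD49f+CD34+, 66.4% (65.1 to 67.8%) of tdT+CD49f+CD34+SCA-1+ and 91.6% (89.5 to 93.5%) of tdTnegCD49f+CD34+SCA-1+ cells. By library the tdT+ SCA-1+ shares were 80.0, 48.0 and 75.5% and the tdTneg SCA-1+ shares 90.7 and 93.4%, with no overlap between the groups. Replicate 2 of the former, at 48.0%, was the library with most Trbv and Trav counts. The tdT+CD49f+CD34+ libraries lay at 71.2, 92.3 and 74.8%, and without the second, whose label is in doubt, the group's share was 73.8%. Counted per kilobase of exon the group shares were 80.5, 53.1, 65.7 and 91.3% in the same order.

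In the tdTnegCD49f+CD34+ libraries the shares were 80.0, 5.26 and 83.0%. The low value is that of replicate 2, with 3 gamma and delta counts of 57 (1.10 to 14.6%), and without it the group's share was 81.5%. That library held 29 of the 32 Trav and 25 of the 42 Trbv counts of its group, with 10 on Trav2, and 4 counts of Trac. Without it the group mean fell from 0.267 to 0.0322 CPM for Trav and from 0.343 to 0.197 CPM for Trbv. It also held 107 counts of Dntt and 18 of Ptcra, genes of receptor rearrangement and of the pre-T cell receptor that are expressed in developing lymphocytes, against 0 of Dntt and at most 7 of Ptcra in the other 2 libraries of its group. B cell markers were at 12.8 CPM there, with all 6 genes detected, against 0.442 and 0.451 CPM in the other 2, and 55 immunoglobulin variable segments held 337 counts there against 3 counts in each of the others. Outside its group such values were also found elsewhere, with B cell markers at 14.9 and 11.6 CPM and Dntt at 10 and 23 counts in tdT+CD49f+CD34+ replicates 1 and 2, and B cell markers at 8.96 to 13.1 CPM in the tdT+ SCA-1+ libraries. The part of these in its V segment counts was not tested.

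**Figure D5:**
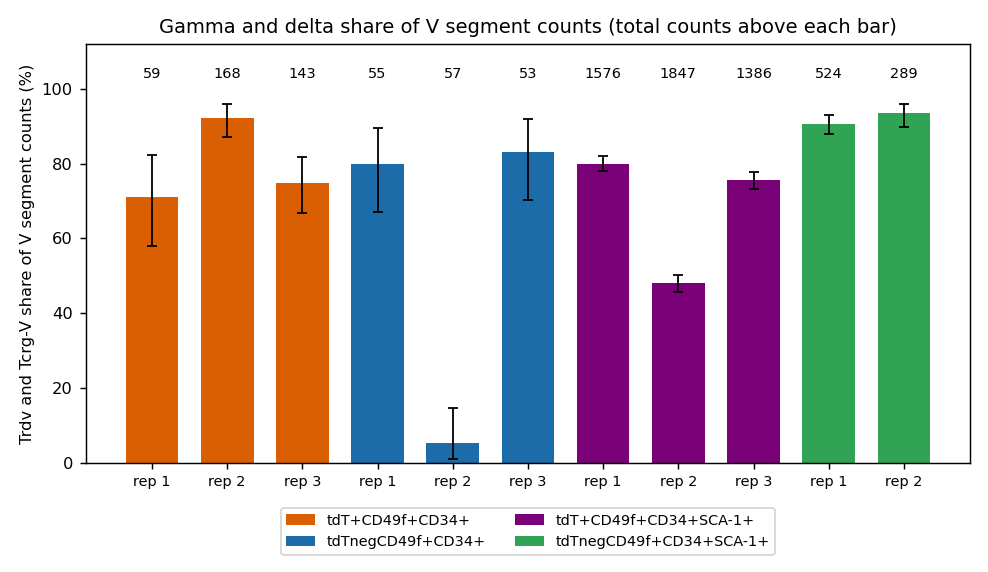
Share of Trdv and Tcrg-V counts in all V segment counts of each library (percent), 1 bar per library, coloured by group, with exact 95% binomial intervals and the total number of V segment counts above each bar. The shares lie at 90.7 and 93.4% in tdTneg SCA-1+ libraries, at 80.0, 48.0 and 75.5% in tdT+ SCA-1+ libraries and at 5.26% in tdTnegCD49f+CD34+ replicate 2.

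The constant regions give a second reading of each chain. For the delta chain there were 28.4 to 39.9 Trdv counts per 100 Trdc counts in the tdT+ SCA-1+ libraries and 36.3 and 52.0 in the tdTneg SCA-1+ libraries, and for the gamma chain 33.3 to 44.4 and 44.1 to 56.7 Tcrg-V counts per 100 counts of the Tcrg-C genes, so that the ranges overlapped for both chains. For the beta chain there were 25.95 to 56.2 Trbv counts per 100 counts of Trbc1 and Trbc2 in tdT+ SCA-1+ and 5.77 and 10.1 in tdTneg SCA-1+ libraries. In tdTnegCD49f+CD34+ libraries there were 2.34 to 8.17, and in tdT+CD49f+CD34+ libraries 7.51, 3.76 and 26.6, the last within the tdT+ SCA-1+ range. For the alpha chain there were 9.43, 24.2 and 7.17 Trav counts per 100 Trac counts in the tdT+ SCA-1+ libraries and 17.6 and 21.9 in the tdTneg SCA-1+ libraries, which overlapped. In the tdTnegCD49f+CD34+ libraries, with at most 16 Trac counts each, this ratio has little meaning. In that group, Trbc2 held 326, 300 and 356 counts and Trbc1 16, 6 and 3, and between the sorts within tdTneg cells Trbc1 was higher in SCA-1+ cells (log2 fold change 3.55, edgeR adjusted p = 0.0264) while the value for Trbc2 was 0.11 (edgeR adjusted p = 0.922). Without tdTneg CD49f+CD34+ replicate 2 this comparison called 2 constant region genes in place of 5, and the value of Trbc1 without it is not given here.

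Of 8 constant region genes 7 were tested, and 5 were called higher in SCA-1+ cells within tdT+ cells (against 2.91% of all genes) and 5 within tdTneg cells (against 3.29%), where Trbc2 was not. When the library labelled tdT+ CD49f+CD34+ replicate 2 was left out both counts were 4, and without its tdTneg counterpart they were 7 and 2. The 4 CD3 genes, which carry the receptor's signal, were all called higher in SCA-1+ cells in both comparisons, also without either library. Between tdT+ and tdTneg SCA-1+ cells Trac (log2 fold change 4.11, edgeR adjusted p = 0.0154), Trbc2 (2.17, edgeR adjusted p = 0.0395), Cd3d (3.70, edgeR adjusted p = 0.0176) and Cd3e (2.95, edgeR adjusted p = 0.0174) were higher in tdT+ cells, while Trdc had 2.05 (edgeR adjusted p = 0.20), against 0.251% of all genes called higher. Without tdT+ SCA-1+ replicate 2, Trac (edgeR adjusted p = 0.0466) and Cd3d (edgeR adjusted p = 0.0290) were called, and Trbc2 (edgeR adjusted p = 0.0999) and Cd3e (edgeR adjusted p = 0.0558) were not. Without the library labelled tdTneg CD49f+CD34+ replicate 2, 4 constant region genes were called higher in place of 2, Trdc among them (edgeR adjusted p = 0.0392). Of the CD3 genes 3 were called higher in place of 2. In the CD49f+CD34+ sort the same comparison gave 3.62 for Trac (edgeR adjusted p = 0.113), 3.26 for Trdc (edgeR adjusted p = 0.179) and 3.28 for Cd3e (edgeR adjusted p = 0.0604). When the library labelled tdT+ CD49f+CD34+ replicate 2 was left out it gave 3.84 for Trac (edgeR adjusted p = 0.168), 3.25 for Trdc (edgeR adjusted p = 0.327) and 3.02 for Cd3e (edgeR adjusted p = 0.143).

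Of the coreceptors, Cd8a held 1037, 1513 and 1425 counts in the tdT+ SCA-1+ libraries and 69 and 0 in the tdTneg SCA-1+ libraries, and Cd8b1 401, 626 and 594 against 12 and 0. The log2 fold changes were 5.80 (edgeR adjusted p = 0.0714) and 6.98 (edgeR adjusted p = 0.0729), with no overlap. Cd4 held 174, 72 and 17 counts in tdT+ and 30 and 3 in tdTneg SCA-1+ cells, with a log2 fold change of 2.55 (edgeR adjusted p = 0.425), and overlapped. Joining segments of the alpha chain (Traj) summed to 1.31 to 2.81 CPM in tdT+ and 0.0423 to 0.299 CPM in tdTneg SCA-1+ libraries, and those of the beta chain (Trbj) to 6.29 to 10.3 and 2.13 to 2.32 CPM. The 6 myeloid and Langerhans cell markers summed to 280 to 333 CPM in tdT+ and 516 to 920 CPM in tdTneg SCA-1+ libraries, but 0 of 6 were called and Cd207, Itgax, Lyz2 and Csf1r overlapped between the groups after TMM scaling. Their part in the V segment levels was not tested.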

How the data were processed

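RNA was measured by sequencing in 11 libraries of FACS-sorted dorsal epidermal cells in 4 groups, grouped by the labels. Per the labels and the study's methods, the authors aligned reads with STAR to mm10, allowing 2 mismatches within 50 bases. They counted the reads per Ensembl 96 gene with featureCounts. The deposited values are raw counts per gene, and whether counting used strand or reads with several matches is not given in the sources used here. The deposited files hold 55536 Ensembl genes. 1 feature outside them, which the files do not describe, stayed out of library sizes and tests.

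Counts were summed by locus, scaled to CPM of the total on genes, and given exact Poisson or Clopper-Pearson intervals. Groups were compared with edgeR 4.0.16 in R 4.3.3 (TMM, filterByExpr, quasi-likelihood test over all 11 libraries with 1 mean per group, Benjamini-Hochberg adjustment). Overlap of libraries was read on TMM-scaled values for genes within the fit and the share of all genes, and on CPM of the total elsewhere. DESeq2 1.42.0, other filters and scalings, the groups compared alone, a replicate block and leaving out each library were alternatives. Ratios of locus sums, bounds and receptor and marker lists without single libraries were added after the data were seen. Folds against a group at 0 used a floor of 3 counts over the group. Uniqueness is the share of 50-base windows of a segment's GENCODE M21 transcripts found in no other gene's transcript on either strand.

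The replicate number marks a shared pool of mice, so it pairs the samples. Deviations of same-numbered samples from their group means correlated with a median of 0.083 over 15 pairs (-0.415 to 0.589), against -0.023 over 30 pairs with other numbers.

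The segments and lists were chosen with earlier results of these data known. The text names segments called in any comparison, the 3 with most counts per kilobase at each locus, segments of known T cell classes, and Trbv13-1, Trbv13-2, Trbv13-3, Trbv19, Trbv29 and Trbv31. Trbv3, Trbv12-1, Trbv12-2, Trbv16, Tcrg-V1, Tcrg-V3, Trdv2-2 and Trav2 were added after their values were seen.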

Additional observations from a re-analysis of the deposited data

Results flagged for a closer look

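A feature that carries no Ensembl gene, of which the files give no description and which no comparison used, stood above its level in the tdTneg libraries in 5 of the 6 tdT+ libraries. It held 133 and 252 CPM in tdT+CD49f+CD34+ replicates 1 and 3, and 254, 224 and 307 CPM in the tdT+CD49f+CD34+SCA-1+ libraries. The tdTneg libraries held 2.54 to 4.89 CPM. In tdT+CD49f+CD34+ replicate 2 it held 37 counts, or 2.05 CPM (1.44 to 2.83), which is below all tdTneg libraries, and whether its sort or label holds was not tested. That library had the highest Trdv4 level of its group (5.32 CPM).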

How the results depend on the processing

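The ratio of mean Trav levels turned when 1 library was left out, with 1.11 becoming 0.743 to 9.23 for tdTneg SCA-1+ over tdTneg CD49f+CD34+ cells and 1.17 becoming 0.778 to 9.67 for tdT+ over tdTneg CD49f+CD34+ cells, both of which overlap. It was 0.808 and 0.743 without tdTnegCD49f+CD34+ replicates 1 and 3 in the former, and 0.846, 0.778 and, without tdT+CD49f+CD34+ replicate 2, 0.92 in the latter. Between tdT+ and tdTneg cells of the CD49f+CD34+ sort, where 0 segments were called, 1 was called with all genes of at least 1 count (Tcrg-V5, 0.402% of all genes) and 2 with DESeq2 (Tcrg-V5 and Trdv4). In the SCA-1+ sort 3 were called with DESeq2 and 2 with the groups compared alone. Between the sorts within tdT+ cells, the 4 calls of 18 tested segments (8.45% of all genes called) became 7 of the 7 tested with at least 10 counts in every library of a group (11.1%), a filter that keeps only segments high throughout a group, 3 of the 4 tested with the groups compared alone (Tcrg-V5, Trbv3 and Trdv4, 8.85%), 8 with DESeq2 (15.5%), 1 with the replicate block and 1 to 6 when each library was left out. Within tdTneg cells the 2 calls became 0 to 3 when each library was left out, with 0 on leaving out SCA-1+ replicate 1, where the remaining library was assumed to vary like the other groups. The replicate block changed no other call of a V segment. The cause of these changes was not tested.

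In tdTneg SCA-1+ cells, Trav moved from 0.298 CPM to 0.289 with TMM and 0.295 with RLE library sizes, Tcrg-V from 4.85 to 4.70 with TMM, and per kilobase the Trdv4 share to 90.5% and the Tcrg-V5 share to 88.4%. The Trbv15 share of tdT+ SCA-1+ beta counts ran from 1.95 to 25.1% when each library was left out. With at least 10 counts required, 36 segments were detected in place of 77. With genes of at least 1 count, the median log2 fold change of all genes between the sorts within tdTneg cells moved from -0.13 to -0.343. Low counts limit many segments: 35 of the 77 were seen in 1 library only.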

Other observations

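Joining segments of the delta chain (Trdj) summed to 1.23 to 3.68 CPM in tdT+ SCA-1+ and 0.422 to 1.10 CPM in tdTneg SCA-1+ libraries. Immunoglobulin variable segments, which belong to B cells, summed to 1.76 to 9.13 CPM in the tdT+CD49f+CD34+ libraries, against 0.383 to 1.78 CPM in tdT+ SCA-1+ and 0.133 to 0.591 CPM in tdTneg SCA-1+ libraries. The tdTnegCD49f+CD34+ libraries held 0.0645, 8.56 and 0.0737 CPM, the second near the highest tdT+ one.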
